A study of Homo sapiens with 12 samples.

Results

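DIO3 and 4 other genes of the DLK1-DIO3 imprinted locus on human chromosome 14 were followed through 12 RNA sequencing libraries of the prostate cancer lines LNCaP and LNCaP:C4-2. The 5 genes, DLK1, MEG3, MEG8, DIO3OS and DIO3, were found by their symbols among the 60675 genes listed in each deposited count table. They were chosen by the measured levels of DIO3 in C4-2, whose mean went from 0.907 to 652.9 CPM (counts scaled to a common library size) with the combined treatment. The C4-2 values of DIO3, and those of DIO3OS in the same comparisons with the combination, are therefore given below as a description, with no test.

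LNCaP is an androgen-dependent line, and C4-2 is its castration-resistant derivative. All 12 libraries, the controls included, came from cells in medium with charcoal-stripped serum that received the synthetic androgen R1881 at 1 nM, and treatment lasted 72 h. Namoline was given at 50 µM and blocks KDM1A, a histone demethylase. TCE-5002 blocks another histone demethylase, KDM7A, with selectivity, but it also targets KDM7B (PHF8) and KDM2A. The part of each enzyme in the effects of TCE-5002 was not tested. Its dose is uncertain, since the text of the series has 100 µM and the methods of the study have less. C4-2 had 4 groups of 2 libraries, which were R1881 alone, R1881 with namoline, R1881 with TCE-5002 and R1881 with both (the combination). The libraries labelled LNCaP had 2 groups of 2, R1881 alone and the combination. The methods call the 2 samples of a group biological replicates. A label of the treatment protocol describes siRNA work that does not match these groups, which were taken from the titles. The header of replicate 1 of the combination labelled LNCaP names an alignment with namoline only, against its title.

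The libraries labelled LNCaP stood apart from C4-2. Over 11 luminal prostate markers the summed level was 939 to 1006 CPM with R1881, against 3386 to 3589 CPM in C4-2, and over 8 mesenchymal markers it was 871 to 960 CPM against 81.9 to 83.9 CPM. E-cadherin (CDH1) was at 42.03 ± 3.53 CPM (SD, n = 2) in the libraries labelled LNCaP and at 977 ± 40.5 CPM in C4-2. Vimentin (VIM) was at 685.9 ± 64.9 CPM against 2.45 ± 0.246 CPM. LNCaP is known as an epithelial line with ample E-cadherin and little vimentin, so these markers go against the label, and the 4 samples are called the libraries labelled LNCaP throughout. Library totals ran from 14791602 to 20690819 counts. In bulk RNA, fewer cells that express a gene and less RNA per cell cannot be told apart.

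Genomic imprinting silences one parental copy of a gene. In the DLK1-DIO3 domain the paternal copy carries the active protein-coding genes DLK1, RTL1 and DIO3, and the maternal copy carries the active non-coding RNAs MEG3 and MEG8 together with clusters of small nucleolar RNAs and microRNAs. DLK1 encodes a membrane protein of the Notch ligand family, and DIO3 encodes type 3 deiodinase, a selenoprotein that inactivates thyroid hormone. DIO3OS is a long non-coding RNA transcribed from the opposite strand next to DIO3. Counts per gene do not separate the parental copies.

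On GRCh38 the domain was taken from the start of DLK1 to the end of DIO3 (chr14:100725705-101563452, 837.7 kb). DIO3 (ENSG00000197406, chr14:101561351-101563452, plus strand) is a single exon of 2102 bases in the deposited annotation. DIO3OS (ENSG00000258498, chr14:101552221-101560431, minus strand) has 5605 exonic bases and ends 919 bases before DIO3, so the pair points away from each other and does not overlap. This matters for the counts, which were made without a strand option. DLK1 (ENSG00000185559, chr14:100725705-100738224), MEG3 (ENSG00000214548, chr14:100779410-100861031) and MEG8 (ENSG00000225746, chr14:100937401-100960199) lie on the plus strand at the other end.

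The upstream sequences of the pair that moved, and of MEG3, which was near 0 throughout, are shown for comparison. They are the 250 bases before the RefSeq start (GRCh38.p14), 5′ to 3′ on the strand of the gene, for DIO3 (chr14:101561245-101561494), DIO3OS (chr14:101560423-101560672) and MEG3 (chr14:100825858-100826107). RefSeq starts DIO3 144 bases after the deposited annotation does. The MEG3 window lies inside the deposited MEG3 gene (chr14:100779410-100861031), not before it. DLK1 and MEG8 had no entry. Capitals mark the TATA box letters TATAAA, the CCAAT box letters CCAAT, the GC box letters GGGCGG and the cAMP response element letters TGACGTCA, each searched on both strands.
DIO3: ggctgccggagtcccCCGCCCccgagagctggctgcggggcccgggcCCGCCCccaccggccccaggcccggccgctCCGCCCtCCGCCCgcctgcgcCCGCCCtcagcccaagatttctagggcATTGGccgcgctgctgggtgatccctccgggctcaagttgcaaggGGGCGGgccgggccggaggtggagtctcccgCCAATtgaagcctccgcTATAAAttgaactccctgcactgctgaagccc
DIO3OS: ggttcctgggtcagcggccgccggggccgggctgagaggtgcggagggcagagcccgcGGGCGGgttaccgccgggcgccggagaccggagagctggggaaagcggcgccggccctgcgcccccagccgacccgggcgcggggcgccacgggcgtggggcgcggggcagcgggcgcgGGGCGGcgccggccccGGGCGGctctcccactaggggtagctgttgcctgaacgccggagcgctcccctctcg
MEG3: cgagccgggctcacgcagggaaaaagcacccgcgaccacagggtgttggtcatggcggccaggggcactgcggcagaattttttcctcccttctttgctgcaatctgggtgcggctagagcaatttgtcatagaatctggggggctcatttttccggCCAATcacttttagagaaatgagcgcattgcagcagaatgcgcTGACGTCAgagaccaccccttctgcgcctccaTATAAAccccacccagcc

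The DIO3 window held 1 TATA box match at 32 bases before the start, 2 CCAAT matches and 6 GC box matches. That of DIO3OS held 3 GC box matches and neither of the other boxes, and that of MEG3 held 1 TATA box match, 1 CCAAT match and 1 cAMP response element match. Over 35116 windows of the same length, 10.7% held TATAAA, 32.0% CCAAT, 42.6% GGGCGG and 1.65% TGACGTCA. The E-box CACGTG (6.34% of windows) and the GLI site GACCACCCA (0.199%) were searched in the same way and not found in the 3 windows. DIO3 had 22 CpG dinucleotides and 73.2% G and C in its window, DIO3OS 38 and 81.6%, and MEG3 13 and 56.4%, against medians of 11 and 58.0% over all windows. A match is a string of letters, not a shown binding site.

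DIO3 is read through an in-frame TGA codon as selenocysteine, the residue at the active site of the 3 deiodinases. The codon (capitals) is shown with 24 coding bases on each side, from GENCODE transcripts on GRCh38, because DIO1 and DIO2 encode the other deiodinases, whose levels are given with the thyroid hormone genes. It lies at chr14:101562004-101562006 in DIO3, chr1:53904704-53904706 in DIO1 and chr14:80203112-80203114 in DIO2.
DIO3: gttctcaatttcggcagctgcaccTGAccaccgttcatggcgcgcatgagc
DIO1: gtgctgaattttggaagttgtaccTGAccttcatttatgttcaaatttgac
DIO2: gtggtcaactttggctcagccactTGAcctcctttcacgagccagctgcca

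Of these 51 bases, DIO3 shared 31 with DIO1 and 29 with DIO2. DIO3OS also hosts the microRNA gene MIR1247 (chr14:101560287-101560422, minus strand), whose mature forms from RefSeq are printed with the seed, bases 2 to 8, in capitals.
hsa-miR-1247-5p: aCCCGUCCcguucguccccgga
hsa-miR-1247-3p: cCCCGGGAacgucgagacuggagc

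The MIR1247 gene had 0 counts in all 12 libraries. Libraries of polyadenylated RNA do not measure mature microRNAs, and the MIR1247 gene lies within the span of DIO3OS on the same strand, where reads of the 2 transcripts cannot be told apart.

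In C4-2 cells DIO3 was near 0 with R1881, between 5.63 and 25.5 CPM with either inhibitor, and among the most abundant messages of the cell with both. With R1881 alone the 2 libraries held 11 and 20 counts, which is 0.515 and 1.30 CPM. With namoline they held 431 and 94 counts (25.5 and 5.63 CPM), and with TCE-5002 227 and 258 counts (11.8 and 13.8 CPM). With the combination they held 10982 and 10911 counts, or 623 and 683 CPM. No group with an inhibitor overlapped R1881 alone, the namoline libraries lay on both sides of the TCE-5002 ones, and both combination libraries stood above the other 6.

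The group means of DIO3 were 0.907 ± 0.555 CPM with R1881, 15.6 ± 14.04 CPM with namoline, 12.8 ± 1.46 CPM for TCE-5002 and 652.9 ± 41.95 CPM under the combination (SD, n = 2 each). The combination mean was 719.8 times that of R1881, 41.95 times that of namoline and 51.1 times that of TCE-5002. It was also 23.0 times the sum of both single-inhibitor means. On the log2 scale of the fit, the change with the combination was 9.55 (SE 0.97), with namoline 4.17 (SE 1.04) and with TCE-5002 3.90 (SE 1.05). There the combination change exceeded the sum of both single changes by 1.48 (SE 1.54), with -1.61 to 4.56 within 2 SE. The SE is wide beside this value, and no test of an excess is drawn from it, since these values chose the genes.

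Ranked by CPM per kilobase of exon among the protein-coding genes with a count, DIO3 moved from place 12254 of 15742 and 11257 of 15501 with R1881 to place 64 of 15467 and 65 of 15295 with the combination. Its level per kilobase was then 296.5 and 324.7 CPM per kb. With namoline it stood at places 4125 and 8991, and with TCE-5002 at 6883 and 6288. DIO3 took 0.0599% and 0.0627% of all counts in the combination libraries.

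The namoline libraries differed more for DIO3 than for nearly any other gene. The ratio of their CPM was 4.53 for DIO3 and 4.65 for DIO3OS, and both genes were higher in replicate 1. Among 14374 genes with a mean of at least 1 CPM in that group, 99.99% differed less on the log2 scale than either of the pair, with a median absolute difference of 0.14. In the combination the ratio was 1.10 for DIO3, a difference above that of 57.8% of genes. With TCE-5002 it was 1.18. The R1881 libraries of C4-2 also differed widely, with a ratio of 2.52 for DIO3 and 3.24 for DIO3OS. These differences were above those of 99.81% and 99.78% of 14779 genes with a mean of at least 1 CPM. The pair, at means of 0.907 and 0.276 CPM, fell below that limit itself. Low counts spread more by counting error, so these shares do not compare like with like. The namoline and R1881 values of DIO3 are therefore each known only to within the range of their 2 libraries.

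**Figure D1:**
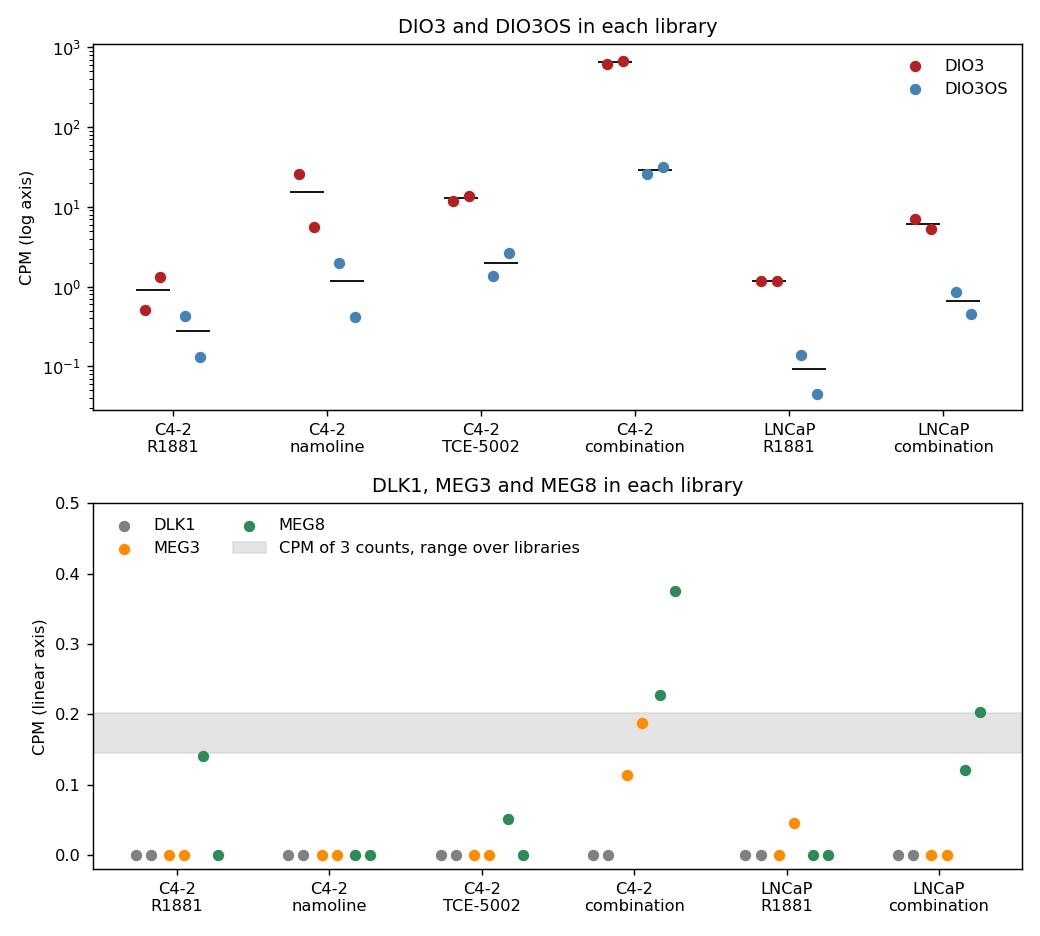
CPM of the 5 genes in each of the 12 libraries (points), with group means of DIO3 and DIO3OS as black lines on a log axis (top) and DLK1, MEG3 and MEG8 on a linear axis (bottom). The grey band is the CPM of 3 counts, 0.145 to 0.203 over the libraries. The C4-2 combination libraries hold DIO3 at 623 and 683 CPM, while no point of the lower panel exceeds 0.375 CPM.

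DIO3OS, the opposite-strand RNA, followed DIO3 at a lower level. Its counts were 9 and 2 with R1881 in C4-2, 33 and 7 with namoline, 26 and 49 with TCE-5002, and 460 and 512 with the combination. Both combination libraries stood above the other 6, and namoline replicate 2, at 7 counts, fell between the R1881 libraries. The means were 0.276 ± 0.206, 1.19 ± 1.08, 1.99 ± 0.904 and 29.1 ± 4.19 CPM (SD, n = 2 each). The combination mean was 105.5 times that of R1881, a ratio that rests on 11 counts over both R1881 libraries. Its fitted log2 change was 6.55 (SE 0.47). Without R1881 replicate 1 it was 7.71, as the remaining library held 2 counts. In the full fit the DIO3OS change exceeded the sum of both single changes by 1.885 (SE 0.915).

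For the single inhibitors, which were not what drew attention to the locus, DIO3OS was tested. These tests use the same C4-2 R1881 libraries as the comparison that chose the locus, so their p-values are not independent of that choice. Under TCE-5002 it rose by 2.71 on the log2 scale (SE 0.62, edgeR adjusted p 0.00308). Of all 17702 genes tested in that comparison, 11.9% were called, that is, had an edgeR adjusted p below 0.05 and at least a 2-fold change, and 2 of the 5 members could be tested at all. Without TCE-5002 replicate 2 the value was 2.16 and the call was lost (edgeR adjusted p 0.0573). With namoline it rose by 1.96 (SE 0.69, edgeR adjusted p 0.0376), in a comparison where 12.1% of genes were called. That call did not hold with DESeq2 (log2 fold change 2.03, adjusted p 0.098), and without namoline replicate 1 the value was 0.45 (edgeR adjusted p 0.742). It was also lost without R1881 replicate 1 (3.12, edgeR adjusted p 0.0577) and without R1881 replicate 2 (1.47, edgeR adjusted p 0.192).

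Across the 8 C4-2 libraries the log2 CPM of DIO3OS and DIO3 had a Pearson r of 0.96, and 37 of 10208 protein-coding genes had a higher r with DIO3. The libraries share depth and treatment, so r describes them only. The balance within the pair was not constant. DIO3OS held 11 of 42 counts of the pair with R1881 (26.2%, exact 95% interval 13.9 to 42.04), 40 of 565 with namoline (7.08%, 5.11 to 9.52), 75 of 560 with TCE-5002 (13.4%, 10.7 to 16.5) and 972 of 22865 with the combination (4.25%, 3.99 to 4.52). The 2 R1881 libraries were at 45.0% and 9.09%, so the higher share there came from replicate 1. The combination libraries, at 4.02% and 4.48%, lay below both TCE-5002 libraries, at 10.3% and 16.0%. Per base of exon, DIO3 exceeded DIO3OS 60.1-fold with the combination, 35.0-fold with namoline and 17.2-fold with TCE-5002. These intervals cover counting error only.

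**Figure D2:**
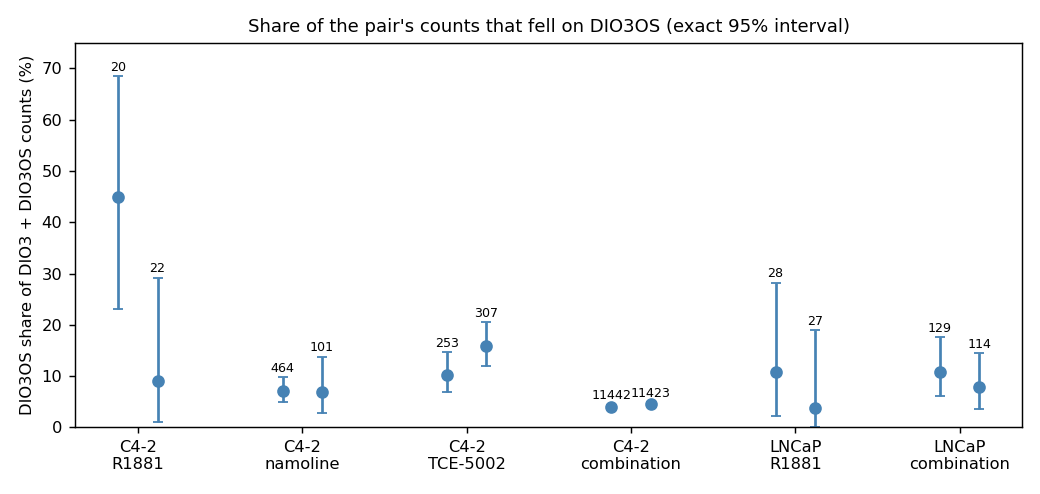
Share of the counts on DIO3 and DIO3OS together that fell on DIO3OS, in percent, for each library, with exact 95% binomial intervals as bars and the number of counts of the pair above each bar. The combination libraries in C4-2 sit at 4.02% and 4.48% with narrow intervals, and the R1881 libraries at 45.0% and 9.09% with wide ones.

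The choice of genes rested on the C4-2 values of DIO3, with earlier results of these data known. Tests in the libraries labelled LNCaP may therefore not be independent of it. There DIO3 also rose with the combination. It held 25 and 26 counts with R1881 (1.16 and 1.18 CPM) and 115 and 105 counts with the combination (6.96 and 5.33 CPM), and the groups did not overlap. The mean went from 1.17 ± 0.0139 to 6.15 ± 1.16 CPM (SD, n = 2 each), 5.24 times higher, and the fitted log2 difference was 2.44 (SE 0.29, edgeR adjusted p 1.12e-08). Of 17565 genes tested there 18.7% were called, 7.40% higher, and 1 of the 5 members could be tested. Without combination replicate 1, the library whose header names namoline only, the value was 2.23 (edgeR adjusted p 9.37e-10).

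The sizes of the rise are set side by side as a description, since the C4-2 values chose the genes. The combination mean of DIO3 in C4-2 was 106.3 times that in the libraries labelled LNCaP, whereas with R1881 alone the means were within 1.29-fold of each other. DIO3OS in these libraries went from 3 and 1 to 14 and 9 counts, too few to pass the low-count filter. With no such filter its log2 fold change was 2.76 (SE 0.93, edgeR adjusted p 0.0132). Where leaving out a library let it pass the filter, the value was 3.69 without R1881 replicate 1 (edgeR adjusted p 0.0298), 3.17 without combination replicate 2 (edgeR adjusted p 0.00844), and 2.21 without R1881 replicate 2, when it missed the threshold (edgeR adjusted p 0.125). The DIO3OS share of the pair was 7.27% (exact 95% interval 2.02 to 17.6) with R1881 and 9.47% (6.10 to 13.9) with the combination.

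DLK1, MEG3 and MEG8, at the other end of the domain, were at or near 0 throughout. DLK1 had 0 counts in all 12 libraries, and 0 of 221088424 counts allows a level of up to 0.0136 CPM over the series. MEG3 had 2 and 3 counts in the C4-2 combination, 1 count in replicate 2 of R1881 labelled LNCaP and 0 in the other 9 libraries. MEG8 had 4 and 6 counts in the C4-2 combination, 3 and 0 with R1881, 1 and 0 with TCE-5002, 0 and 0 with namoline, and 2 and 4 in the combination labelled LNCaP against 0 and 0 with R1881. The highest of these values was 0.375 CPM. At this depth, where 3 counts amount to 0.145 to 0.203 CPM, no change of these 3 genes could be measured, and none passed the low-count filter in any comparison.

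The same held for the rest of the domain. The deposited annotation lists 128 genes there, 114 of which had 0 counts in all libraries, and only DIO3 and DIO3OS reached 1 CPM in any library. None of 47 microRNA genes and 4 of 40 SNORD genes, which encode small nucleolar RNAs, had a count. Libraries of polyadenylated RNA are not made to measure such short RNAs, so their 0 counts do not show that they were absent. RTL1, the third protein-coding gene, had 1 count and MEG9 had 5. Over the 12 libraries DIO3 and DIO3OS took 24330 counts and all the others 53. Of those 53, 25 were in the 2 C4-2 combination libraries and 28 in the other 10.

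The nearest genes on either side of the domain changed by less than 2-fold with the combination in C4-2. Before DLK1 the nearest 3 with a mean of at least 1 CPM were BEGAIN, WDR25 and WARS1. BEGAIN, 138 kb away, changed by 0.09 on the log2 scale (SE 0.36, edgeR adjusted p 0.862) with the combination in C4-2, WDR25 by -0.51 (SE 0.19, edgeR adjusted p 0.0392), and WARS1, the tryptophanyl-tRNA synthetase, by -0.93 (SE 0.10, edgeR adjusted p 3.43e-06), all less than 2-fold. WARS1 fell more than 2-fold with either inhibitor alone, with log2 changes of -1.90 for namoline (SE 0.11, edgeR adjusted p 9.37e-09) and -1.68 for TCE-5002 (SE 0.11, edgeR adjusted p 8.65e-08). WDR25 and WARS1 overlap in the annotation, so their counts are not wholly separate.

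After DIO3 came PPP2R5C, a regulatory subunit of protein phosphatase 2A, 198 kb away, then ENSG00000271780 and DYNC1H1, the cytoplasmic dynein heavy chain. With the combination in C4-2 they changed by -0.41 (SE 0.13, edgeR adjusted p 0.0126), -0.27 (SE 0.17, edgeR adjusted p 0.215) and 0.23 (SE 0.11, edgeR adjusted p 0.0859). ENSG00000271780 fell by 1.02 for TCE-5002 (SE 0.18, edgeR adjusted p 0.00047) and, in the LNCaP-labelled libraries, rose by 1.87 under the combination (SE 0.50, edgeR adjusted p 0.00188), from 0.415 to 1.47 CPM. Of 26 other genes tested within 1 Mb of the domain, 5 were called in the C4-2 combination, 2 higher and 3 lower, with a median change of -0.35. Over all genes 21.7% were called there and the median was -0.03. Of the 20 tested among the LNCaP-labelled libraries 3 were called, 1 higher and 2 lower, with a median of 0.08. Over all genes 18.7% were called in that comparison and the median was -0.005.

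**Figure D3:**
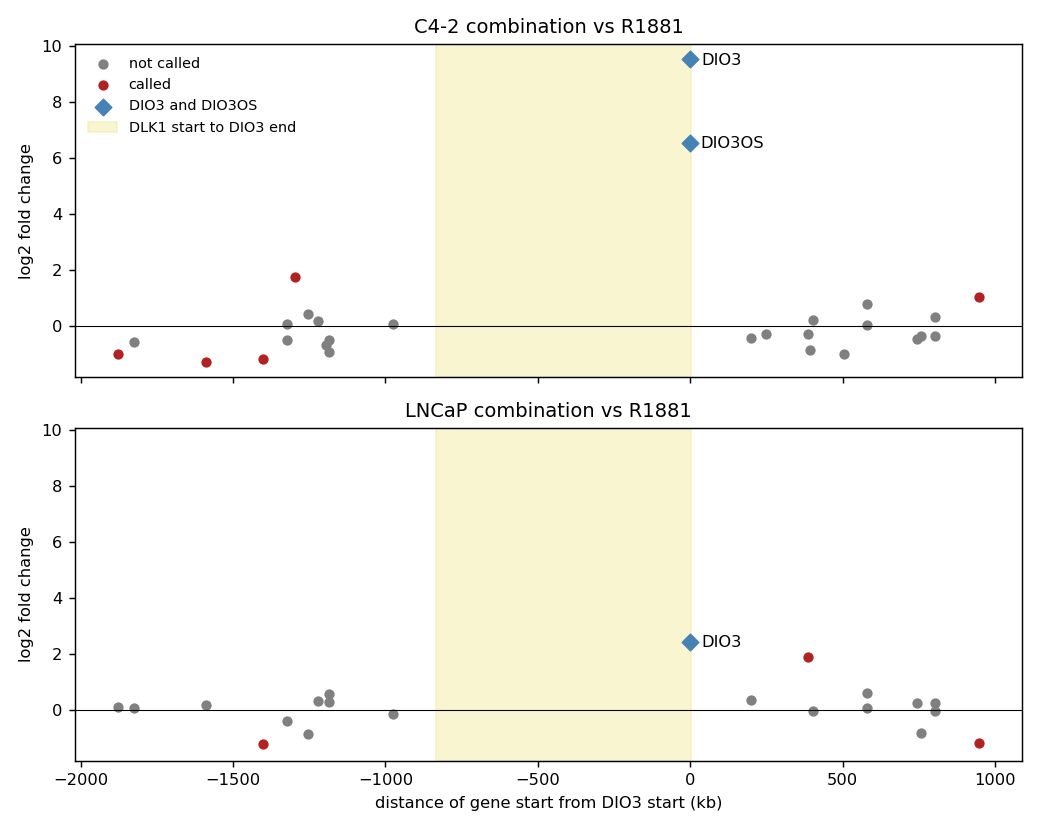
Log2 fold change with the combination against R1881 for the genes tested within 1 Mb of the domain, by the distance of each gene's start from the DIO3 start in kb, in C4-2 (top) and in the libraries labelled LNCaP (bottom). Shading spans the domain, red points passed the test, and diamonds are DIO3 and DIO3OS. In C4-2 the pair stands at 9.55 and 6.55, while the other genes lie between -1.29 and 1.77.

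Over the 8 C4-2 libraries the 5 protein-coding genes with the pattern most like DIO3 were NTMT1, SUSD6, CAPRIN2, FTL and DDB2, with Pearson r of log2 CPM from 0.98 to 0.99 among 10208 genes compared. NTMT1, an N-terminal protein methyltransferase, went from 27.9 ± 1.87 CPM with R1881 to 65.9 ± 1.08 CPM with the combination, with 39.6 ± 2.70 CPM for namoline and 38 ± 2.40 CPM for TCE-5002. SUSD6 was at 36.8 ± 3.97 and 99.9 ± 1.32 CPM, and CAPRIN2, an RNA-binding protein, at 51.1 ± 2.65 and 85.5 ± 4.79 CPM. FTL, the ferritin light chain, was at 292.7 ± 21.0 and 1319 ± 55.1 CPM. DDB2, a DNA damage recognition protein, was at 20.8 ± 0.126 and 151.3 ± 11.1 CPM. All 5 shared the order of DIO3, with both single inhibitors between R1881 and the combination. They were picked for their correlation with DIO3 in these same libraries, so the shared order is not a separate result. None rose by a larger ratio than DDB2.

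Their levels in the other line varied from gene to gene. In the libraries labelled LNCaP, FTL was at 314.8 ± 1.88 CPM with R1881 and 619.7 ± 42.04 CPM with the combination, and CAPRIN2 at 39.2 ± 5.86 and 53.1 ± 12.5 CPM. NTMT1 was at 33.0 ± 1.76 and 28.4 ± 1.75 CPM, SUSD6 at 32.3 ± 1.10 and 21.2 ± 1.94 CPM, and DDB2 at 47.6 ± 2.97 and 46.8 ± 0.199 CPM.

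**Figure D4:**
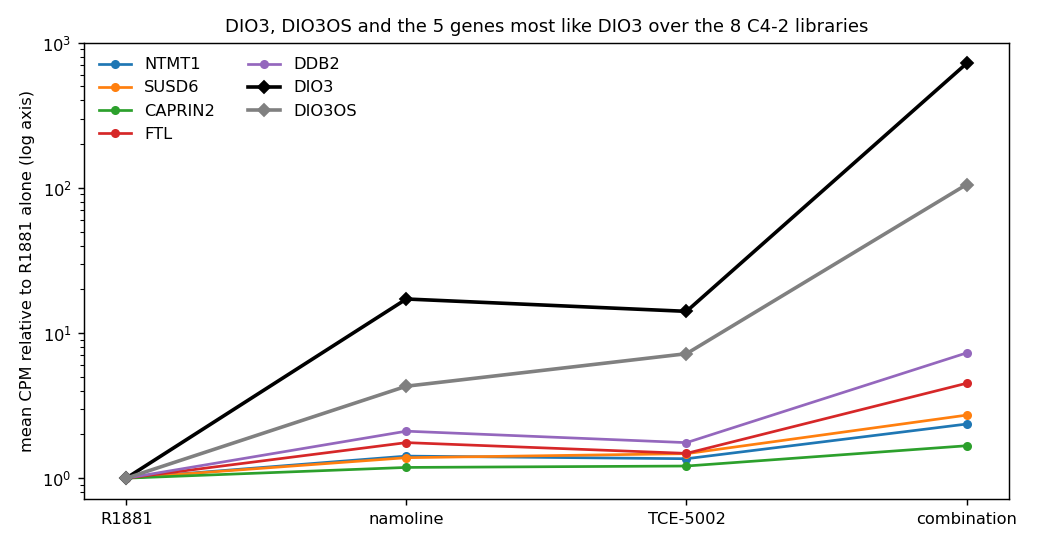
Mean CPM in the 4 C4-2 groups relative to R1881 alone, on a log axis, for DIO3, DIO3OS and the 5 protein-coding genes most like DIO3 over the 8 libraries. DIO3 reaches 719.8 and DIO3OS 105.5 with the combination, and the 5 other genes stay below both.

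Type 3 deiodinase acts on thyroid hormone, so the other genes of thyroid hormone transport, activation and response were read from the same fits. Of 19 such genes other than DIO3, 15 were tested in C4-2. With the combination 1 rose and 2 fell, where 8.90% of all genes were called higher and 12.8% lower. The median change was -0.35, against -0.03 over all genes. SLC7A5, an amino acid transporter that also carries thyroid hormone, fell from 489 to 112 CPM, a log2 change of -2.15 (SE 0.14, edgeR adjusted p 2.01e-08). THRB, the thyroid hormone receptor beta, fell from 83 to 31 CPM, a log2 change of -1.45 (SE 0.12, edgeR adjusted p 1.75e-07). SLCO4A1, an organic anion transporter, rose from 13.7 to 31.2 CPM, by 1.17 (SE 0.17, edgeR adjusted p 3.35e-05).

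The single inhibitors gave another picture of this list. With namoline 4 of the 15 rose and 0 fell, and with TCE-5002 4 rose and 1 fell, beside 5.16% and 5.07% of all genes called higher and 6.90% and 6.83% called lower. DIO1, which encodes type 1 deiodinase, rose by 1.23 with namoline (SE 0.45, edgeR adjusted p 0.045) and by 2.26 for TCE-5002 (SE 0.41, edgeR adjusted p 0.000563), and changed by -0.49 with the combination, at a level of 0.514 CPM with R1881 and 2.60 CPM at most. DIO2, the activating type 2 enzyme, was below 0.6 CPM in every group and was not tested. Among the LNCaP-labelled libraries 0 of 14 rose and 2 fell with the combination, beside 7.40% and 11.3% of all genes. These were SLC7A5 (-1.37, SE 0.12, edgeR adjusted p 1.37e-11) and RXRA, the retinoid X receptor alpha (-1.04, SE 0.12, edgeR adjusted p 3.46e-09), which came to -0.70 after correction for GC content.

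**Figure D5:**
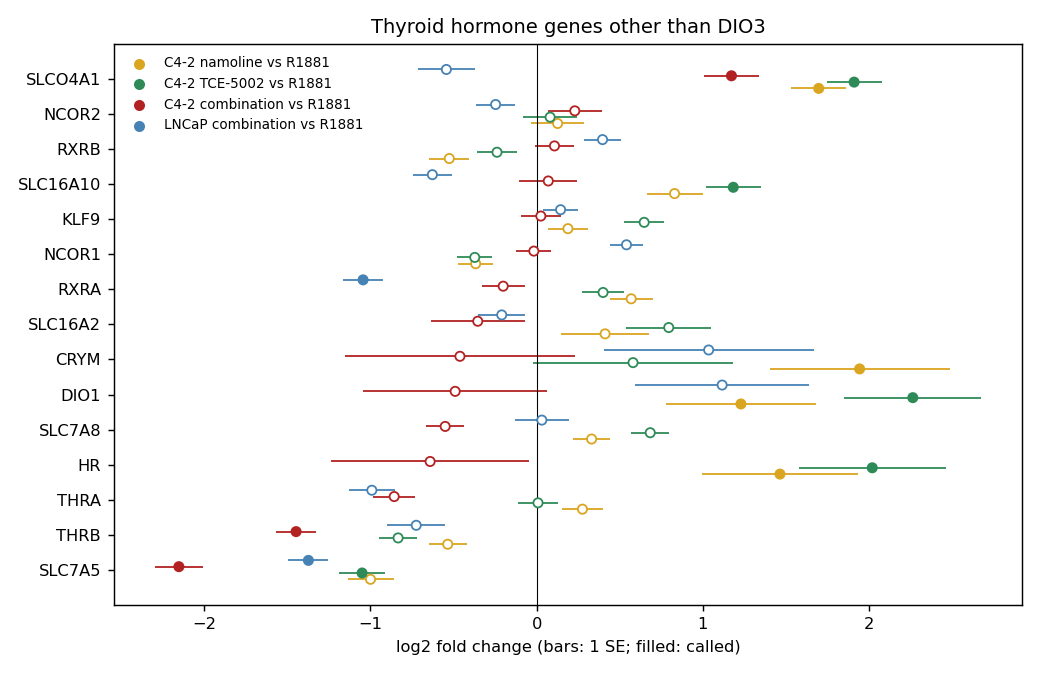
Log2 fold change against R1881 of the thyroid hormone genes other than DIO3 that were tested, in 4 comparisons, with bars of 1 SE and filled points for those called. With the combination in C4-2, SLC7A5 and THRB fell by 2.15 and 1.45 and SLCO4A1 rose by 1.17.

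DIO3 is also a selenoprotein. Of 24 others, 21 were tested in C4-2, and with the combination 2 rose and 2 fell, with a median change of 0.05. These counts are near the shares over all genes, 8.90% higher and 12.8% lower. TXNRD1, thioredoxin reductase, rose from 542.4 to 1522 CPM, by 1.46 (SE 0.13, edgeR adjusted p 4.37e-07), and it also rose in the LNCaP-labelled libraries, by 1.11 (SE 0.10, edgeR adjusted p 2.57e-11), or 0.97 after the GC correction. GPX2 rose by 1.28 (SE 0.50, edgeR adjusted p 0.0438) at about 1 CPM, a call lost with DESeq2 (adjusted p 0.0935), without either R1881 library or without combination replicate 2 (edgeR adjusted p 0.0766 to 0.355). GPX3, a secreted glutathione peroxidase, fell by 1.75 (SE 0.35, edgeR adjusted p 0.00071), and SELENOP, the plasma selenium carrier, fell from 27.9 to 9.73 CPM, a log2 change of -1.55 (SE 0.15, edgeR adjusted p 7.20e-07). Of 20 tested with the LNCaP label 1 rose and 1 fell, where 7.40% and 11.3% of all genes did, the latter SELENOM (-1.20, SE 0.19, edgeR adjusted p 2.13e-06), which came to -0.83 with the GC correction. Of 9 genes that make and insert selenocysteine, 0 were called by edgeR with the combination in either line, where the medians were -0.05 and 0.25. All 9 moved less than 2-fold. Of them, 5 in C4-2 and 6 among the LNCaP-labelled libraries had an edgeR adjusted p below 0.05, and DESeq2 called 0 in each.

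Of 36 imprinted genes outside this domain, 26 were tested in C4-2, and 2 rose and 2 fell with the combination, no larger a share than the 8.90% higher and 12.8% lower over all genes. PHLDA2, a growth-restraining placental gene, rose from 11.2 to 26.1 CPM, by 1.21 (SE 0.22, edgeR adjusted p 0.000364), and ZNF597 rose from 4.88 to 11.4 CPM, by 1.18 (SE 0.25, edgeR adjusted p 0.000958). Each came just below 2-fold without one library, PHLDA2 at 0.96 without R1881 replicate 1, and ZNF597 at 0.97 without R1881 replicate 2 and 0.83 without combination replicate 2. PLAGL1, a zinc finger regulator, fell from 1.69 to 0.213 CPM, a log2 change of -3.02 (SE 0.65, edgeR adjusted p 0.00117), and NDN (necdin) from 24.6 to 9.51 CPM, a log2 change of -1.39 (SE 0.18, edgeR adjusted p 1.16e-05). The LNCaP-labelled libraries had 28 tested, of which 0 rose and 3 fell (7.40% and 11.3% over all genes), among them PEG10 (-2.17, SE 0.32, edgeR adjusted p 6.88e-07) and FAM50B (-1.98, SE 0.20, edgeR adjusted p 3.49e-10).

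Of 13 factors that keep imprints or DNA methylation, 11 were tested in C4-2 with the combination, and 1 rose and 1 fell, beside 8.90% higher and 12.8% lower over all genes. UHRF1, which recruits the maintenance methyltransferase, rose from 1.63 to 4.46 CPM, by 1.42 (SE 0.26, edgeR adjusted p 0.000288), and TET1, which oxidises methylcytosine, fell from 1.85 to 0.469 CPM, a log2 change of -1.99 (SE 0.43, edgeR adjusted p 0.00122). Of 11 tested with the LNCaP label 0 rose and 1 fell, beside 7.40% and 11.3% over all genes. It was TET3 (-1.01, SE 0.11, edgeR adjusted p 2.39e-09), which came to -0.92 with the GC correction.

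Of 9 Notch genes tested in C4-2 besides DLK1, 2 rose and 2 fell with the combination, where 8.90% of all genes were called higher and 12.8% lower. The ligand DLL1 rose from 9.98 to 35.3 CPM, by 1.80 (SE 0.17, edgeR adjusted p 5.28e-07), and the protease ADAM17, which sheds Notch and DLK1, rose by 1.24 (SE 0.14, edgeR adjusted p 2.83e-06). The ligand JAG1 fell from 42.8 to 13.9 CPM, a log2 change of -1.64 (SE 0.14, edgeR adjusted p 3.39e-07), and DLK2, the paralogue of DLK1, fell by 1.54 (SE 0.37, edgeR adjusted p 0.00256). With the LNCaP label 0 of 10 rose and 6 fell, against 7.40% higher and 11.3% lower over all genes, led by NOTCH1 (-2.04, SE 0.13, edgeR adjusted p 1.87e-14) and JAG1 (-1.80, SE 0.17, edgeR adjusted p 9.74e-11).

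Of the Hedgehog pathway, which has a role in prostate tissue, SMO and GLI1 are given for the combination in C4-2. SMO, the signal transducer, fell from 3.92 to 1.96 CPM, a log2 change of -1.01 (SE 0.28, edgeR adjusted p 0.00794), a call that fell under 2-fold with RLE scaling (-0.98), with DESeq2 or with no low-count filter, and was lost without R1881 replicate 2 (edgeR adjusted p 0.0651) or combination replicate 2 (edgeR adjusted p 0.0639). GLI1, a transcription factor of the pathway, fell by 1.93 (SE 0.76, edgeR adjusted p 0.0446) at 0.815 CPM or less, a call lost without any one of the 4 libraries compared (edgeR adjusted p 0.0593 to 0.21). Under the LNCaP label 0 of 11 rose and 4 fell (7.40% and 11.3% over all genes), among them BOC (-1.60, SE 0.17, edgeR adjusted p 5.98e-10) and GAS1 (-1.58, SE 0.15, edgeR adjusted p 6.21e-11), both Hedgehog co-receptors.

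Markers of cell identity moved in the same libraries as DIO3. The summed level of the 11 luminal markers was 2339 to 2351 CPM in the C4-2 combination, against 3386 to 3589 CPM with R1881, and 0 of the 11 were at 0 counts. KLK3 (-2.19, SE 0.15, edgeR adjusted p 3.72e-08), FOXA1 (-2.11, SE 0.12, edgeR adjusted p 3.47e-09), HOXB13 (-1.83, SE 0.12, edgeR adjusted p 2.46e-08) and KLK2 (-1.41, SE 0.15, edgeR adjusted p 2.33e-06) fell, 4 of 11, beside 12.8% of all genes. Among the LNCaP-labelled libraries 3 of 11 fell, beside 11.3% of all genes, led by KLK3 (-1.75, SE 0.13, edgeR adjusted p 1.46e-12) and KLK2 (-1.71, SE 0.14, edgeR adjusted p 9.79e-12), and the sum went from 939 to 1006 to 396 to 522 CPM.

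The mesenchymal sum was 88.9 to 104 CPM in the C4-2 combination, against 81.9 to 83.9 CPM with R1881. Within it ZEB1 rose by 3.59 (SE 0.43, edgeR adjusted p 6.75e-06), FN1 fell by 1.58 (SE 0.15, edgeR adjusted p 6.84e-07) and VIM fell by 1.00 (SE 0.33, edgeR adjusted p 0.0178), a call at the 2-fold limit that was lost with RLE scaling (-0.97), with DESeq2 (adjusted p 0.0501) and without R1881 replicate 1 (edgeR adjusted p 0.112) or either combination library (edgeR adjusted p 0.0632 and 0.097). The neuroendocrine sum of 7 genes was 23.3 to 23.6 CPM, against 8.57 to 8.58 CPM, with 2 genes at 0 counts. Only 2 of the 7 were tested in C4-2, with a median change of 0.56. Of these, ENO2 was higher by 2.04 (SE 0.27, edgeR adjusted p 1.85e-05), and the other went down and was not called. Over all genes 8.90% were called higher. Among LNCaP-labelled libraries 0 of 7 mesenchymal markers tested were called by edgeR or DESeq2, though 3 had an edgeR adjusted p below 0.05 at less than 2-fold. Of the neuroendocrine markers CHGA fell there by 1.22 (SE 0.26, edgeR adjusted p 0.000125), or -0.77 with the GC correction. Their part in the DIO3 values was not tested.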

How the data were processed

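Polyadenylated RNA from 12 cell line libraries was sequenced as paired ends. The authors trimmed reads with Trim Galore, aligned them with STAR and counted fragments per gene with featureCounts 1.5.0-p1, without a strand option, on Ensembl release 83 of GRCh38, and deposited raw counts for each library. Library totals were 14791602 to 20690819 counts, and 3 counts amounted to 0.145 to 0.203 CPM.

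Groups followed the sample titles. CPM were computed here with TMM library sizes, and levels between genes were compared per kilobase of exon. Genes past edgeR's low-count filter were tested with edgeR 4.0.16 (robust quasi-likelihood F test, Benjamini-Hochberg adjustment over all genes tested) in R 4.3.3, in separate fits for C4-2 (8 libraries), for the libraries labelled LNCaP (4), and for the R1881 and combination groups of both (8). A gene was called at an adjusted p below 0.05 and a change of at least 2-fold. The SE was the absolute log2 fold change divided by the square root of F. The p-values measure only the spread between 2 libraries per group. The fits were tested on simulated data.

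The genes and lists were chosen with earlier results of these data known. Named genes were the 5 members, genes of the domain that reached 1 CPM, the nearest 3 on each side with a mean of at least 1 CPM, the 5 protein-coding genes (at least 10 CPM in a library) most correlated with DIO3 in C4-2 and the 3 most correlated with MEG3, and from each list up to 4 called genes in C4-2 and 2 among the LNCaP-labelled libraries with the largest changes under the combination. WARS1, DIO1, RTL1, MEG9 and MIR1247 values beyond these were chosen after they were seen. Alternatives were RLE scaling, no filter, DESeq2 1.42.0, a replicate block, a correction for GC content, the last 2 together, leaving out each library, plain library totals for CPM and, chosen after seeing the data, a fit without robust spread. Exact binomial intervals came from scipy 1.17.1. One result of the Hedgehog list is not reported here.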

Additional observations from a re-analysis of the deposited data

Results flagged for a closer look

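The change with the combination differed between C4-2 and the libraries labelled LNCaP for 21 of the genes named above other than DIO3 and DIO3OS, by the test of the difference itself (edgeR, adjusted p below 0.05 and at least 2-fold). Differences are given as C4-2 minus the libraries labelled LNCaP on the log2 scale. The same test called 25.4% of 19763 genes. Genes from the lists were named for large changes with the combination in these same libraries, so 21 cannot be set against that share. The lines also differed in their marker levels with R1881 alone, whose part in these differences was not tested.

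Among thyroid hormone genes and selenoproteins, the difference was 1.67 for SLCO4A1 (SE 0.22, edgeR adjusted p 3.97e-07), -1.96 for GPX3 (SE 0.40, edgeR adjusted p 0.000183) and 1.75 for SELENOM (SE 0.18, edgeR adjusted p 1.24e-08). SLCO4A1 changed by 1.17 in C4-2 and by -0.54 in the libraries labelled LNCaP.

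Imprinted genes elsewhere differed in both directions. The values were -3.11 for PLAGL1 (SE 0.44), -1.09 for NDN (SE 0.43), 1.71 for PHLDA2 (SE 0.30), 1.83 for ZNF597 (SE 0.31), 3.17 for PEG10 (SE 1.08) and 1.18 for FAM50B (SE 0.29), with edgeR adjusted p between 1.45e-06 for PLAGL1 and 0.0382 for NDN. PEG10 was at 0.0793 and 0.182 CPM in C4-2, with 1 to 4 counts a library, passed the low-count filter only through the libraries labelled LNCaP and was not tested in C4-2 alone, so its value rests on a gene near the floor. PLAGL1 was at 1.69 CPM in C4-2 and 114.4 CPM in the libraries labelled LNCaP with R1881. Of the factors that keep imprints or methylation, TET1 differed by -2.38 (SE 0.41), UHRF1 by 1.88 (SE 0.27) and TET3 by 1.04 (SE 0.13).

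In the Hedgehog and Notch lists, GLI1 differed by -2.09 (SE 0.59, edgeR adjusted p 0.00436), DLL1 by 2.90 (SE 0.20, edgeR adjusted p 1.01e-11) and NOTCH1 by 2.92 (SE 0.17, edgeR adjusted p 2.15e-12). DLL1 rose by 1.80 in C4-2 and its value was -1.15 in the libraries labelled LNCaP. Among the marker genes, FOXA1 differed by -1.21 (SE 0.13), ZEB1 by 3.63 (SE 0.34), FN1 by -1.53 (SE 0.19) and ENO2 by 2.09 (SE 0.17). Next to the domain, WARS1 differed by -1.54 (SE 0.13, edgeR adjusted p 4.79e-10) and ENSG00000271780 by -2.18 (SE 0.42, edgeR adjusted p 8.88e-05).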

How the results depend on the processing

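The rise of DIO3 in the libraries labelled LNCaP passed the test under every alternative run, with log2 fold changes from 2.41 to 2.79, and from 2.23 to 2.62 when each library was left out. The C4-2 combination values ran from 9.52 to 9.60 for DIO3 and from 6.54 to 6.68 for DIO3OS, and from 8.94 to 10.2 and from 6.05 to 7.71 when each library was left out. The DIO3OS call with namoline was lost with DESeq2 (2.03), the GC correction (1.70) and the GC correction with the replicate block (1.70), and its value ran from 0.45 to 3.12 over the libraries left out. The call with TCE-5002 was lost with a GC correction plus the replicate block (2.38), and ran from 2.16 to 3.87 over the libraries left out. The cause was not tested. The numbers of genes called stayed within 1.5 times the values used, in each of the 9 comparisons, under every alternative. With 2 libraries per group, a fit without one library takes the spread of the remaining one from the other groups.

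With the replicate number as a block, the DIO3OS value with namoline was 1.96 and the call was lost (edgeR adjusted p 0.0969). The block gave 2195 called genes for namoline, 2143 for TCE-5002, 3895 for the combination in C4-2 and 3054 among the LNCaP-labelled libraries, against 2135, 2107, 3844 and 3283. The numbers are only shared labels, as the correlation of deviations between same-numbered C4-2 libraries was between -0.014 and 0.196 and that in the libraries labelled LNCaP was 0.00935.

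Among 57 values of other named genes, 576 of 627 alternative values kept their direction and side of the threshold, 42 lost the call and 9 changed sign. These 9 belong to genes that were not called. BEGAIN ran from -0.012 without R1881 replicate 2 to 0.20 in C4-2 over the libraries left out. In the libraries labelled LNCaP, BEGAIN came to 0.36 with the GC correction and 0.38 with the block added, and to 0.22 and 0.016 without R1881 replicate 1 and combination replicate 2, with a lowest value of -0.45 over the libraries left out. DYNC1H1 there came to 0.026 and 0.022 with these corrections, and to 0.058 and 0.11 without R1881 replicate 2 and combination replicate 2, with a lowest value of -0.25. With plain library totals 11 of 12 mean CPM values moved by less than 1 SD, the exception being DIO3 in the R1881 libraries labelled LNCaP (1.26 CPM). Depth limited DLK1, MEG3 and MEG8, for which no change below about 0.2 CPM could be seen.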

Other observations

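The 3 protein-coding genes whose log2 CPM over the 12 libraries was most like that of MEG3 were TUFT1 (Pearson r 0.96), NFKBIB (0.96) and KCMF1 (0.95). MEG3 had 6 counts in all, so these values describe almost nothing but which libraries held them.

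The summed level of the luminal markers in C4-2 was 3386 to 3589 CPM with R1881, 3840 to 4259 CPM for namoline, 4978 to 5114 CPM for TCE-5002 and 2339 to 2351 CPM under both. By edgeR, 2 of the 11 rose with namoline and 4 with TCE-5002, beside 5.16% and 5.07% of all genes called higher. With either inhibitor 0 fell, beside 6.90% and 6.83% of all genes called lower. With the combination 4 fell, beside 12.8% of all genes. Single members went other ways than the sum. CDH1 was lower with namoline (-0.68, edgeR adjusted p 0.00022) and with TCE-5002 (-0.68, edgeR adjusted p 0.00024), and KRT8 was higher with the combination (0.56, edgeR adjusted p 0.00111), all less than 2-fold. UHRF1 went from 1.63 ± 0.0104 CPM with R1881 to 28.3 ± 5.82 CPM for namoline, 10.4 ± 1.78 CPM for TCE-5002 and 4.46 ± 0.114 CPM under both (SD, n = 2 each), an order unlike that of DIO3.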
